A study of Mus musculus with 13 samples.

Results

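Neuroblastomas of mice that carry both a MYCN transgene and a mutated ALK transgene were compared with neuroblastomas of mice that carry MYCN alone, to describe how expression differs between these groups of tumours. The comparison was defined by the labelled genotypes: the 3 arrays of tumours with both transgenes (double transgenic) and the 4 arrays of MYCN tumours, 7 of the 13 arrays in the series. All 18193 genes named by a probe set with 1 gene symbol were tested, each through its brightest probe set. The other 6 arrays, 3 of tumours with mutated ALK alone (mutALK) and 3 of normal adrenal gland, entered the estimate of the spread and are given as context.

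All mice were on a C57BL/6 background, and the transgenes were directed to the neural crest, the embryonic tissue from which the sympathetic nervous system and adrenal medulla arise. Transgenic animals were followed until a tumour could be felt. The labels name neither the ALK mutation nor the promoter that drives each transgene, and they give no age. They do not state whether the arrays came from separate animals, and p-values therefore refer to the spread among the samples at hand. Values are log2 expression, in which a difference of 1 is a factor of 2, and differences are double transgenic minus MYCN ± SE.

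Neuroblastoma is a childhood tumour of the sympathetic nervous system. MYCN is a transcription factor whose amplification marks aggressive disease, and it drives genes of ribosome production, nucleotide synthesis and cell division. ALK is a receptor tyrosine kinase of developing neurons. Activating mutations make it signal without its ligands through the RAS, ERK (MAP kinase), PI3K and STAT3 pathways, and ERK signalling induces its own feedback inhibitors (Sprouty, Spred and dual specificity phosphatase genes) and the PEA3 group of ETS transcription factors.

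The mouse genes that correspond to the transgenes were examined first. The brightest Mycn probe set (chromosome 12) was at 9.77, 9.86 and 10.93 in the double transgenic arrays, against 6.30, 5.19, 6.68 and 7.23 in the MYCN arrays. Every double transgenic array lay above every MYCN array, and the difference was 3.84 ± 0.51 (limma, adjusted p = 0.00141). In mutALK tumours it averaged 12.03 ± 0.33 and in adrenal gland 7.69 ± 0.92 (SD, n = 3 each). The other 2 Mycn probe sets did not pass the test, with differences of −0.08 ± 0.16 and −0.02 ± 0.11. Alk was at 8.74, 9.13 and 9.47 in double transgenic tumours, against 9.87, 9.08, 9.53 and 9.30 in MYCN tumours. These arrays overlapped, and the difference of −0.33 ± 0.24 did not pass (adjusted p = 0.423). Whether these probe sets read the transgenes is not given in the sources used here, so they do not check the genotypes.

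Of the other members of the ALK receptor and ligand list, Ltk, the related receptor, Ptn and Mdk, which encode growth factors reported to bind ALK, and the proteoglycan genes Ptprz1 and Sdc3 all missed the threshold, so 0 of 6 measured members were called. Their differences ran from −0.74 for Mdk to 0.86 for Ptprz1, and 12.8% of all genes were called in either direction. The related MYC family genes did not pass either, with −0.29 ± 0.41 for Myc and 0.15 ± 0.29 for Mycl. In the MYC and MAX network Mxd1, which encodes a partner of MAX that antagonises MYC, rose by 0.66, while Max fell by 0.41 and Mxi1, another antagonist, fell by 0.38. Each of these 3 calls was lost without some arrays: Mxd1 without double transgenic 2, Mxi1 without double transgenic 3, and Max without MYCN 2, 3 or 4 or any double transgenic array.

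Across all genes, 2333 (12.8%) passed an adjusted p of 0.05 by limma, of which 1121 (6.16%) were higher and 1212 (6.66%) lower in double transgenic tumours. At least a 2-fold change was found for 435 of the higher genes (2.39% of all genes) and 349 of the lower ones (1.92%), 784 in all (4.31%). At an unadjusted p under 0.05 there were 4887 (26.9%). The median difference over all genes was −0.03. Every double transgenic array lay above every MYCN array for 2607 genes (14.3%) and below for 2954 (16.2%). The number of calls depended on single arrays: it ranged from 1226 without double transgenic 3 to 3369 without adrenal 2, and it was also over 1.5 times smaller without MYCN 2 (1249), MYCN 3 (1467), MYCN 4 (1494) or double transgenic 2 (1368).

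Arrays correlated across genes at 0.961 to 0.986 within the double transgenic group, 0.980 to 0.989 within the MYCN group and 0.946 to 0.973 between them. Several technical values moved with genotype. The 3′ minus 5′ difference of the Gapdh control probe sets, which grows with RNA degradation, was 0.58 ± 0.17 in double transgenic and 0.24 ± 0.08 in MYCN arrays (SD, n = 3 and 4), and that of Actb was 0.85 ± 0.20 and 0.64 ± 0.04. Poly-A spike controls, added to the RNA before labelling, averaged 6.78 ± 0.34 in double transgenic and 8.58 ± 0.14 in MYCN arrays and were lower in all 3 double transgenic arrays than in the other 10. Each of these 3 differences reached 0.0571 in a two-sided exact permutation test, the smallest p that 3 against 4 arrays allow (0.0761 after adjustment over 4 tests, of which the poly-A test was added after seeing the data). The hybridisation spikes averaged 10.48 in double transgenic and 10.52 in MYCN arrays (p = 1, exact permutation test). The poly-A values set all 3 double transgenic arrays apart from the other 10. Sample preparation and genotype therefore cannot be told apart for any gene in this comparison.

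Liver transcripts stood high (list mean above 8) in double transgenic 1 and MYCN 2, and in 3 arrays of the other groups, and leaving these 5 arrays out gave 1982 called genes (942 higher, 1040 lower). With the liver list mean as a covariate 2224 were called (1094 higher, 1130 lower). Skeletal muscle transcripts were high in double transgenic 1 (list mean 6.79) and MYCN 3 (7.96), and the remaining 5 arrays of these groups lay at 4.47 to 4.86. Sex, read from Xist and Y-linked genes, was 1 female and 2 male in the double transgenic group and 1 female and 3 male in the MYCN group. Y-linked genes read 2.73 to 3.54 in female arrays, so a gene near that level may differ by more than the arrays show. Because these are bulk samples, fewer cells of a type and less RNA per cell cannot be told apart in any result that follows.

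**Figure D1:**
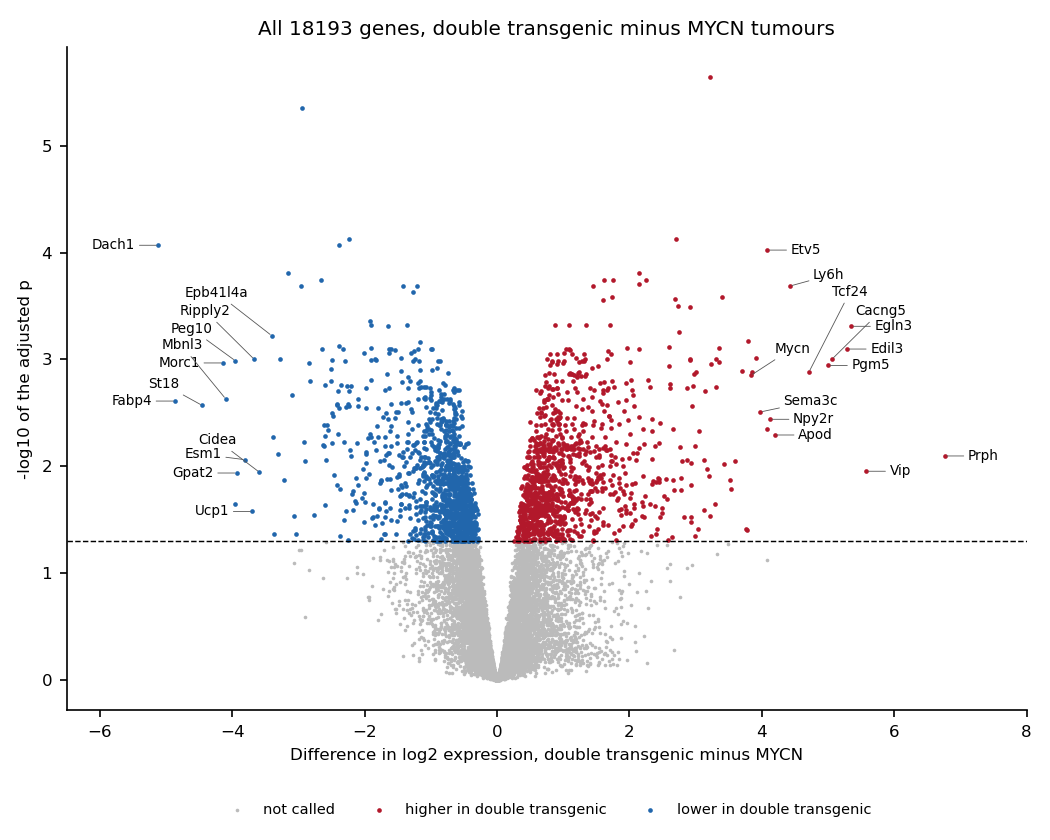
Each point is 1 of 18193 genes, with the double transgenic minus MYCN difference in log2 expression on the horizontal axis and −log10 of the adjusted p (limma) on the vertical axis; the dashed line is an adjusted p of 0.05, red points are called higher, blue points lower and grey points are not called. The named genes are Mycn and the 12 largest rises and falls, led by Prph at 6.76 and Dach1 at −5.11.

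The largest rises included genes of neurons, of peptide signalling and of the ERK response. They were taken from called genes whose double transgenic and MYCN arrays did not overlap. The separation of the groups in each therefore follows from that choice. Prph encodes peripherin, the intermediate filament of peripheral and sympathetic neurons. It was at 9.94, 10.60 and 12.05 in double transgenic tumours, against 4.11, 3.73, 4.23 and 4.35 in MYCN tumours. All 3 double transgenic arrays were far above all 4 MYCN arrays, a difference of 6.76 ± 1.31 (adjusted p = 0.00799). In mutALK tumours Prph averaged 12.79.

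Vip encodes vasoactive intestinal peptide, a neuropeptide that neuroblastic tumours can secrete. Its level was 10.69, 7.33 and 11.37 in double transgenic tumours, against 3.96, 4.63, 3.98 and 4.29 in MYCN tumours. Double transgenic 2 was the lowest of its group and still above every MYCN array, and the difference was 5.58 ± 1.16 (adjusted p = 0.0111), a call that was lost without double transgenic 3.

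Egln3 encodes an oxygen-dependent prolyl hydroxylase that marks hypoxia-inducible factors for degradation and has been tied to the death of sympathetic neurons when nerve growth factor runs out. It was at 11.63, 11.60 and 10.0 in double transgenic tumours, against 6.88, 4.49, 5.83 and 5.70 in MYCN tumours. The groups stood over 3 units apart at their nearest arrays, and the difference was 5.35 ± 0.56 (adjusted p = 0.00049). Its second probe set gave 4.67 ± 0.46.

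Cacng5 encodes an auxiliary subunit of AMPA-type glutamate receptors. It read 9.92, 9.73 and 9.86 in double transgenic tumours, against 4.84, 4.51, 4.21 and 5.55 in MYCN tumours, with a difference of 5.06 ± 0.62 (adjusted p = 0.000994). The double transgenic arrays were nearly level with each other and all above the MYCN arrays. Edil3, which encodes a secreted integrin-binding matrix protein, was at 8.58, 8.06 and 7.45 in double transgenic tumours, against 2.55, 2.48, 2.75 and 3.20 in MYCN tumours, where it lay at the level of unexpressed genes. Its 5.29 ± 0.60 (adjusted p = 0.000799) came from the brightest of 6 probe sets, and the other 5 gave 0.15 to 1.10.

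The ETS factor Etv5, a PEA3 group target of ERK, had the lowest adjusted p among the 12 largest rises. It was at 9.98, 9.38 and 9.45 in double transgenic tumours, against 5.85, 4.97, 5.11 and 6.14 in MYCN tumours. Both groups were tight and lay over 3 units apart, a difference of 4.09 ± 0.31 (adjusted p = 9.49e-05).

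The remaining 6 of the 12 largest rises were Pgm5, for an adhesion protein related to phosphoglucomutases (5.0 ± 0.64), Tcf24, for a basic helix-loop-helix factor (4.71 ± 0.62), Ly6h, for a membrane-anchored protein that affects nicotinic receptor assembly (4.42 ± 0.40), Apod, for a lipid carrier (4.20 ± 0.73), the neuropeptide Y receptor gene Npy2r (4.12 ± 0.67) and Sema3c, for a secreted guidance cue (3.98 ± 0.63). All passed at an adjusted p of at most 0.00509. Of the 12 rises, 11 were called under every alternative, the exception being Vip.

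Most of these genes were also high in mutALK tumours, and the double transgenic arrays enter both comparisons. Etv5 averaged 9.07 in mutALK tumours, Cacng5 10.44, Vip 10.02 and Egln3 9.75. Between double transgenic and mutALK tumours 14.4% of all genes were called. Ly6h and Pgm5 were among them: double transgenic tumours were above mutALK tumours by 3.37 ± 0.42 for Ly6h (adjusted p = 0.00159) and by 3.07 for Pgm5 (0.0148). Ly6h was at 8.88, 9.23 and 9.56 in double transgenic tumours, against 4.74, 4.82, 5.06 and 4.59 in MYCN tumours and a mean of 5.86 in mutALK tumours.

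The 250 bases upstream of the transcription start are given for the 4 largest rises and the largest fall with an entry in RefSeq (GRCm38.p6), so that a reader can look for elements near the genes that moved most. They lie at chr15:99054924-99055173 on the plus strand (Prph), chr10:5638968-5639217 on the plus strand (Vip), chr12:54203875-54204124 on the minus strand (Egln3), chr11:107915056-107915305 on the minus strand (Cacng5, the upstream of 2 listed starts) and chr14:98169766-98170015 on the minus strand (Dach1). Each is written 5′ to 3′ on the gene's strand and ends at the base before the start, with motif matches in capitals.
Prph: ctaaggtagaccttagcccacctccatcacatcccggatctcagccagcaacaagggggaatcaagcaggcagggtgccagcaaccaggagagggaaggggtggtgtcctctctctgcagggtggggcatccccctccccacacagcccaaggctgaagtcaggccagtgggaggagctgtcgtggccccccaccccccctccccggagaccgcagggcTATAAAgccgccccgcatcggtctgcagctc
Vip: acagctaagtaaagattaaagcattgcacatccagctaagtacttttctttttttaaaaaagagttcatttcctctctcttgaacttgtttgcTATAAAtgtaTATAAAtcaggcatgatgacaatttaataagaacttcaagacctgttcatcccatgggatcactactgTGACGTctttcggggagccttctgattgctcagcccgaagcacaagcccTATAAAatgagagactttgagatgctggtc
Egln3: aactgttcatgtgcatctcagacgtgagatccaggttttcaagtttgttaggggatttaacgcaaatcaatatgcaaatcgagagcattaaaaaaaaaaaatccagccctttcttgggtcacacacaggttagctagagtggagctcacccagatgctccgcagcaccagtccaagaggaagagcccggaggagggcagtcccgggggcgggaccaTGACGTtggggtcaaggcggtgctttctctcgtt
Cacng5: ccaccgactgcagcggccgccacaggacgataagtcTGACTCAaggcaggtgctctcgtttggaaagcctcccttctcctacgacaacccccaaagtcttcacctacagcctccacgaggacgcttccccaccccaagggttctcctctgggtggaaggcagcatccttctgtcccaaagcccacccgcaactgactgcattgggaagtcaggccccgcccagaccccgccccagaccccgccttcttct
Dach1: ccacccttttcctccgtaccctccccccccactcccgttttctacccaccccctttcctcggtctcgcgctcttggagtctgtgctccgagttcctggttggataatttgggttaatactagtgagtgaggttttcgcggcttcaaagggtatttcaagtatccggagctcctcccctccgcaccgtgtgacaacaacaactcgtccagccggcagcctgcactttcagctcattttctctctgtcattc

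The motifs searched on both strands were the E-box CACGTG bound by MYC with MAX, the cAMP response element TGACGTCA, the AP-1 motif TGANTCA, and, chosen after seeing the sequences, the shorter cAMP element TGACGT (contained in TGACGTCA) and the TATA box TATAAA. Prph has a TATA box whose first base lies at position −31 from the start. Vip has 3 TATA matches, the nearest at −30, and the shorter cAMP element at −79, Egln3 has the shorter cAMP element at −34, Cacng5 has an AP-1 match at −214, and Dach1 has no match in this window. Among 18109 promoters of tested genes 7.38% held the E-box, 2.12% the full cAMP element, 5.62% the AP-1 motif, 8.31% the shorter cAMP element and 8.81% the TATA box. Among 459 promoters of genes called at least 2-fold higher the shares were 5.45%, 1.09%, 5.23%, 6.1% and 7.41%, and among 323 of genes called at least 2-fold lower they were 6.81%, 2.17%, 6.81%, 6.81% and 9.29%. A match describes letters in the window and not a bound site.

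The largest falls included transcription factor genes, genes of the germ line and genes of fat and vessels. Like the rises, they were chosen for a lack of overlap between double transgenic and MYCN arrays. Dach1 encodes a nuclear cofactor of the dachshund family that takes part in organ development. It was at 5.29, 5.26 and 4.44 in double transgenic tumours, against 8.95, 10.54, 10.74 and 10.20 in MYCN tumours. No arrays overlapped, and the difference of −5.11 ± 0.38 had the lowest adjusted p of the 24 largest changes (8.55e-05). In mutALK tumours Dach1 averaged 4.98.

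St18 encodes a zinc finger factor of the Myt1 family, which acts in neural and endocrine development. It was at 6.39, 5.21 and 6.32 in double transgenic tumours, against 10.05, 10.64, 10.52 and 10.49 in MYCN tumours, a difference of −4.45 ± 0.68 (adjusted p = 0.00269). The double transgenic level was intermediate: it lay below every MYCN array and above the mutALK mean of 2.86 by 3.12 (adjusted p = 0.0184). Ripply2, for a transcriptional corepressor of somite formation, fell by 3.67 ± 0.45 (adjusted p = 0.000994).

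Morc1 and Gpat2 are known from the testis, where Morc1 helps to keep transposons silent in germ cells and Gpat2, for an acyltransferase, has been tied to small RNAs that act on transposons. Morc1 was at 2.81, 2.89 and 2.61 in double transgenic tumours, against 8.76, 5.81, 6.23 and 6.83 in MYCN tumours. Its double transgenic values lay at the level of unexpressed genes, as did its means in mutALK tumours (2.80) and adrenal gland (2.73), and the difference was −4.14 ± 0.52 (adjusted p = 0.00108). Gpat2 was at 4.40, 4.42 and 4.60 in double transgenic tumours, against 9.81, 7.45, 8.05 and 8.31 in MYCN tumours (−3.93 ± 0.83, adjusted p = 0.0115). In both genes MYCN 1 was the highest array. Peg10, an imprinted gene derived from a retrotransposon, fell by 3.95 ± 0.49 (adjusted p = 0.00103), and its 4 MYCN arrays all lay between 8.91 and 9.17.

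The rest of the 12 largest falls were the RNA-binding protein gene Mbnl3 (−4.10 ± 0.61), which had 2 further probe sets at −2.87 and −3.34, the cytoskeletal adaptor gene Epb41l4a (−3.40 ± 0.36), Esm1, which endothelial tip cells secrete (−3.81 ± 0.75), and 3 genes of fat cells described with the stromal genes below, Fabp4 (−4.86 ± 0.73), Ucp1 (−3.69 ± 0.95) and Cidea (−3.59 ± 0.75). All passed at an adjusted p of at most 0.0264. Of the 12 falls, 11 were called under every alternative, the exception being Ucp1, whose call was lost without MYCN 2, 3 or 4 or any double transgenic array.

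**Figure D2:**
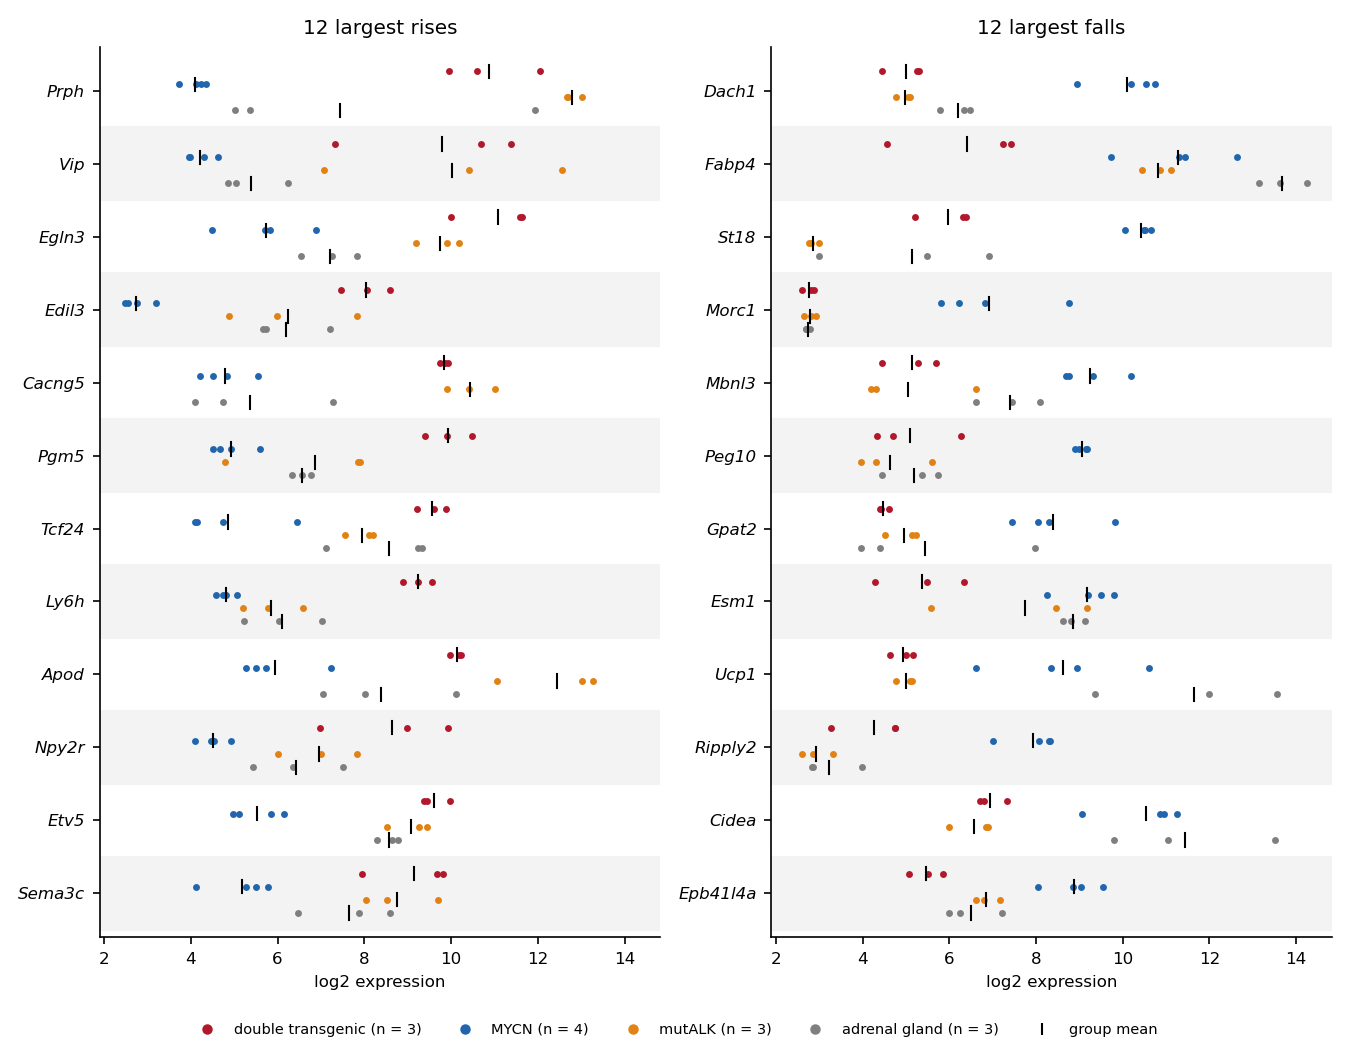
Log2 expression of the 12 largest rises (left) and falls (right) in every array, with double transgenic arrays in red, MYCN in blue, mutALK in orange and adrenal gland in grey, and a vertical bar at each group mean. These genes were chosen for a lack of overlap between double transgenic and MYCN arrays, so the gaps describe that choice; Prph is at 9.94 to 12.05 in double transgenic and 3.73 to 4.35 in MYCN arrays.

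The ERK programme that mutated ALK can feed was read from 21 measured feedback inhibitors and targets. Of these 8 rose (38.1%, against 6.16% of all genes) and 2 fell (9.52%, against 6.66%), with a median difference of 0.56. Without the 5 arrays with liver transcripts 4 rose. The median was 0.14 without double transgenic 3 and 0.87 without double transgenic 2. The list mean was 7.35, 7.09 and 7.67 in double transgenic arrays, against 6.28, 6.42, 6.62 and 6.90 in MYCN arrays. It was 7.60 to 8.09 in mutALK arrays and 7.66 to 7.71 in arrays of normal adrenal gland. Whether mutated ALK accounts for the difference was not tested.

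Etv5 led the list. Dusp4, for a nuclear phosphatase that inactivates ERK, was at 8.11, 7.09 and 8.78 in double transgenic tumours, against 5.15, 4.21, 5.34 and 6.58 in MYCN tumours. The groups did not overlap, and the difference was 2.67 ± 0.61 (adjusted p = 0.0166), a call that was lost without double transgenic 3. Vgf, for a secreted neuropeptide precursor induced by growth factors, rose by 2.39 ± 0.59 (not called without MYCN 2 or double transgenic 1 or 3), and Ier3, an early response gene, rose by 2.11 ± 0.40. The RAS pathway inhibitor genes Spred3 (2.06 ± 0.32), Spry2 (1.12 ± 0.23) and Spred2 (0.84 ± 0.14) and the receptor antagonist gene Il17rd (1.03 ± 0.19) were also higher.

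Family members did not all move one way. Spry1 was at 7.16, 6.61 and 7.09 in double transgenic tumours, against 7.72, 7.71, 7.68 and 8.0 in MYCN tumours, a fall of 0.82 ± 0.18 (adjusted p = 0.0147). Dusp5 fell by 0.66 ± 0.19 (adjusted p = 0.0393), and each of these calls was lost without double transgenic 2. The Dusp5 call was also lost without mutALK 2, MYCN 1, MYCN 2, MYCN 4, double transgenic 3 or the arrays with liver transcripts. Spry4 (1.18 ± 0.53), Dusp6 (0.56 ± 0.41) and Etv4 (0.59 ± 0.43) did not pass.

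Double transgenic 3 was the highest array for these 3 genes. Double transgenic 2 lay among the MYCN arrays in each of them, while double transgenic 1 lay among them for Etv4 and above them for Spry4 (6.18, against at most 5.79) and Dusp6 (8.36, against at most 8.31). Etv4 was at 5.39, 5.28 and 7.24 in double transgenic tumours, against 5.46, 5.36, 5.45 and 5.26 in MYCN tumours. Set against mutALK tumours, the double transgenic levels of Dusp6 and Spry4 were lower, by 2.24 for Dusp6 (adjusted p = 0.00895) and by 2.62 for Spry4 (0.0128).

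Precursors of neuropeptides, the peptide transmitters of sympathetic and other neurons, were called higher for 6 of 22 measured genes (27.3%, against 6.16% of all genes) and lower for 0 (against 6.66%), with a median difference of 0.22. Without double transgenic 3 the count was 3, and the median was 0.14 without double transgenic 1, 0.34 without double transgenic 2 and 3.23 with the dimmest 40% of genes left out. After Vip, the largest was Adcyap1, whose product PACAP acts on receptors shared with VIP. It was at 10.69, 10.35 and 10.22 in double transgenic tumours, against 9.24, 5.87, 7.54 and 4.88 in MYCN tumours. The MYCN arrays were widely spread, and the difference was 3.54 ± 0.81 (adjusted p = 0.0164), a call lost without MYCN 2, double transgenic 2 or double transgenic 3.

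Pnoc, for the nociceptin precursor, was at 10.53, 10.60 and 11.68 in double transgenic tumours, against 7.26, 6.87, 8.57 and 7.67 in MYCN tumours (3.35 ± 0.37, adjusted p = 0.000787). Cartpt, for the CART peptide, was at 12.76, 13.08 and 12.57 in double transgenic tumours, against 10.02, 9.25, 10.15 and 8.85 in MYCN tumours (3.23 ± 0.41, adjusted p = 0.00109). Every double transgenic array was above every MYCN array in each. Gal, for galanin, rose by 2.34 ± 0.46 and Nppb, for a natriuretic peptide, by 0.96 ± 0.26 (not called without double transgenic 3 or any MYCN array). Npy, which sympathetic neurons release with noradrenaline, was at 9.55, 9.72 and 11.04 in double transgenic tumours, against 9.47, 7.47, 9.22 and 10.09 in MYCN tumours and did not pass (1.04 ± 0.57).

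**Figure D3:**
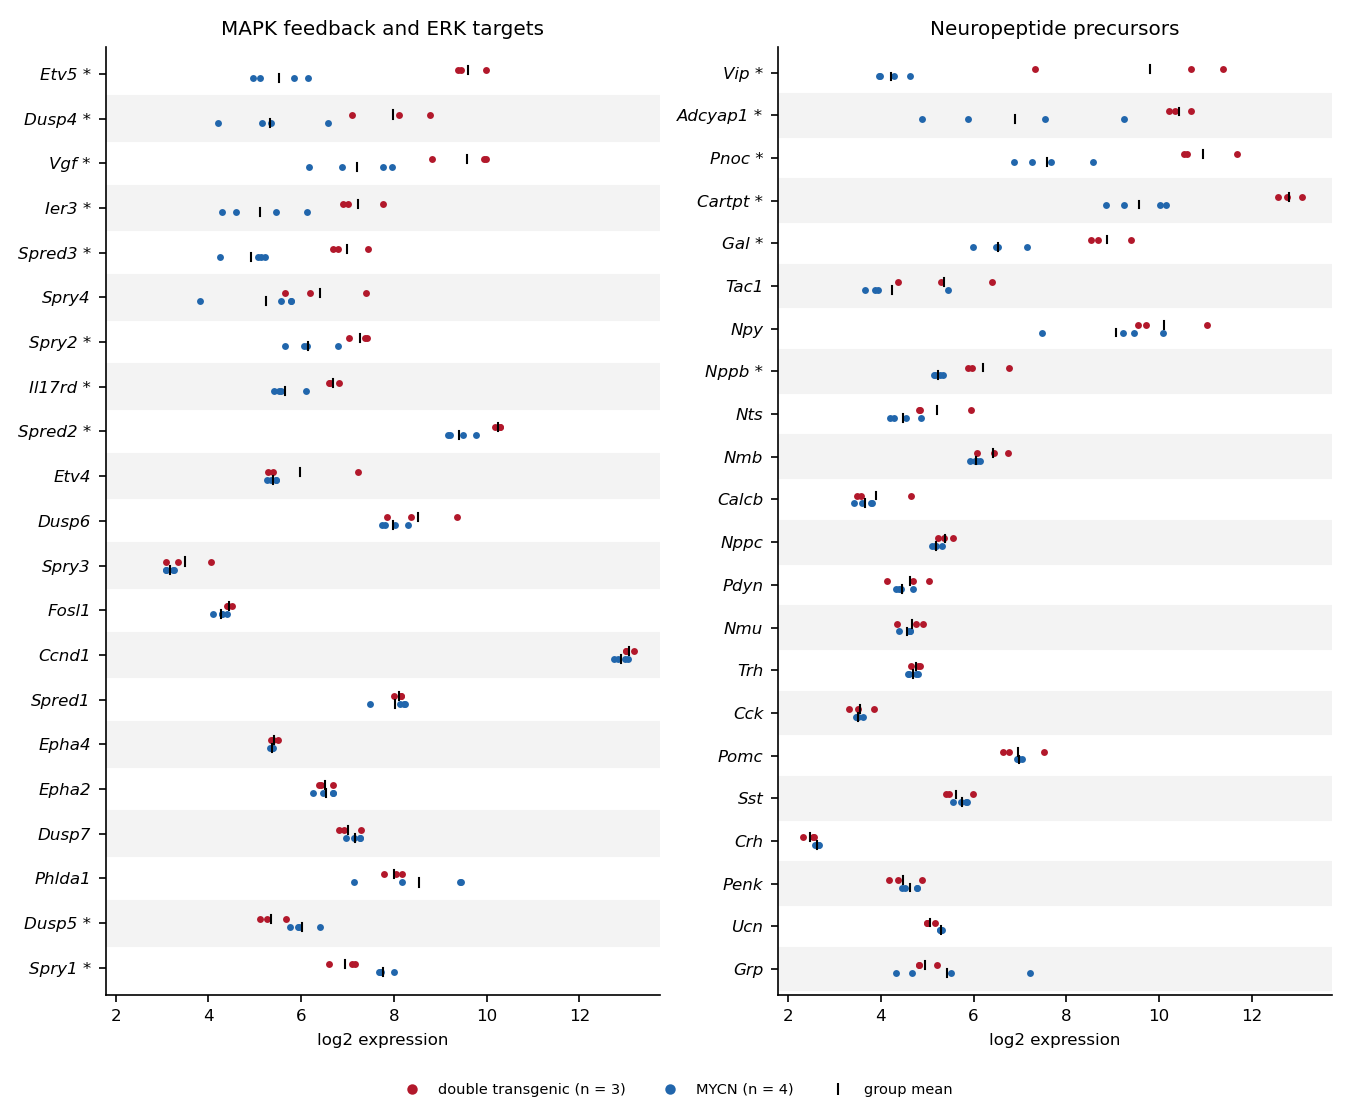
Log2 expression of the 21 measured ERK feedback and target genes (left) and the 22 measured neuropeptide precursors (right) in the 3 double transgenic arrays (red, upper row of each gene) and the 4 MYCN arrays (blue, lower row), with a bar at each group mean and an asterisk for genes called by limma. Etv5 and Cartpt show no overlap between the groups, while Etv4 shows 1 high double transgenic array at 7.24 and Spry1 lies lower in the double transgenic arrays.

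Genes of neuronal structure and function were higher where they passed. In the pan-neuronal list 6 of 28 measured members rose (21.4%, against 6.16% of all genes) and 0 fell (against 6.66%), with a median of 0.69 (0.42 with the liver list mean as a covariate), and 17 had every double transgenic array above every MYCN array (against 14.3% of all genes). Besides Prph these were Rbfox3, for the splicing factor NeuN (2.87 ± 0.57), the microtubule protein genes Mapt (2.87 ± 0.41), Map2 (1.42 ± 0.38) and Dcx (0.88 ± 0.26), and Dpysl3, for a growth cone protein (2.46 ± 0.65). Dpysl3, Map2 and Dcx were not called without MYCN 2, 3 or 4 or any double transgenic array, nor Dcx without mutALK 2 or 3 or adrenal 1 or 3. Mapt was at 10.0, 9.77 and 10.85 in double transgenic tumours, against 7.55, 6.29, 7.46 and 8.06 in MYCN tumours.

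The pan-neuronal count depended on the arrays in the fit: 13 rose without adrenal 2, and 3 without MYCN 2, 3 or 4 or any double transgenic array. Among ion channel genes 5 of 20 rose (25.0%, against 6.16% of all genes) and 0 fell (against 6.66%), with a median of 0.32, among them the potassium channel genes Kcnd2 (3.21 ± 0.68) and Kcnq3 (3.17 ± 0.66) and the sodium channel genes Scn3b (2.93 ± 0.77) and Scn3a (1.95 ± 0.50). That count was 1 without double transgenic 3, 2 without double transgenic 2 or MYCN 2, 3 or 4, and 3 without double transgenic 1. Kcnd2 was called whichever array was left out. Genes of synaptic release gave 3 of 24 higher (12.5%, against 6.16% of all genes) and 0 lower (against 6.66%). These were Unc13a (1.86), Rab3c (1.42) and Rims1 (0.81), and the count was 10 without adrenal 2 and 1 without MYCN 2 or double transgenic 2 or 3. In the cholinergic list 1 of 12 measured genes was called higher (8.33%, against 6.16% of all genes) and 0 lower (against 6.66%). The called gene was Chrna7, a nicotinic receptor gene. It was at 10.81, 10.85 and 10.04 in double transgenic tumours, against 8.32, 7.29, 7.27 and 7.37 in MYCN tumours (3.01 ± 0.39, adjusted p = 0.0013).

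Axon guidance genes moved in both directions, with 4 of 26 higher (15.4%, against 6.16% of all genes) and 3 lower (11.5%, against 6.66%). Sema3c, the semaphorin receptor gene Nrp1 (2.0 ± 0.25), Unc5d (1.39 ± 0.28) and Plxna2 (1.10 ± 0.23) were higher, while Robo1 (−2.25 ± 0.67), Unc5c (−1.22 ± 0.35) and Nrp2 (−0.99 ± 0.28) were lower. Nrp1 was at 11.04, 11.11 and 11.58 in double transgenic tumours, against 8.57, 9.05, 9.51 and 9.84 in MYCN tumours. Nrp2, for the related receptor, was at 9.09, 9.49 and 10.50 in double transgenic tumours, against 10.61, 10.72, 10.72 and 10.66 in MYCN tumours. The 2 neuropilin genes therefore stood in opposite order between the groups, with no overlap in either. The 3 falls depended on single arrays, and 0 of them were called without mutALK 3, MYCN 2, MYCN 3 or adrenal 1, and 1 without mutALK 2, MYCN 1, MYCN 4 or double transgenic 1 or 2. Plxna2 was not called without double transgenic 2.

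Sympathoadrenal identity was checked on its own genes. Hand2 was at 11.75, 11.91 and 12.43 in double transgenic tumours, against 12.30, 12.06, 12.16 and 11.78 in MYCN tumours, and Th, for the enzyme that limits catecholamine synthesis, was at 12.39, 12.37 and 12.97, against 11.80, 9.89, 11.79 and 11.29. Both were expressed well above the level of unexpressed genes in every array, and neither passed (−0.04 ± 0.44 for Hand2, 1.38 ± 0.56 for Th). Among 20 transcription factors of the lineage 3 rose (15.0%, against 6.16% of all genes) and 1 fell (5.0%, against 6.66%). Lmo3, for a cofactor tied to neuroblastoma growth, rose by 2.10 ± 0.42, Tlx2 by 1.66 ± 0.31 and Meis1 by 1.21 ± 0.16, while Satb1 fell by 0.65 ± 0.18.

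Lmo3 was at 8.32, 8.65 and 10.46 in double transgenic tumours, against 7.26, 7.0, 6.81 and 7.10 in MYCN tumours and a mean of 7.22 in mutALK tumours. Double transgenic tumours were above mutALK tumours too, by 1.92 for Lmo3 (adjusted p = 0.0174) and by 1.10 for Meis1 (0.00367). Satb1 lost its call without MYCN 2 or MYCN 3 or any double transgenic array.

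In the catecholamine list 3 of 13 measured genes rose (23.1%, against 6.16% of all genes) and 1 fell (7.69%, against 6.66%). The median was 0.83, and 10 members had every double transgenic array above every MYCN array (against 14.3% of all genes). Dbh, for the enzyme that makes noradrenaline, rose by 1.87 ± 0.49 (adjusted p = 0.0287). The other 3 called genes make or recycle tetrahydrobiopterin, the cofactor of tyrosine hydroxylase: Qdpr (0.83) and Pts (0.60) rose and Spr fell by 0.72. The number that rose was 6 without adrenal 2 or adrenal 3, 1 without MYCN 2, 3 or 4 or double transgenic 2, and 0 without double transgenic 3. The Spr call was lost without MYCN 2, 3 or 4, any double transgenic array or the arrays with liver transcripts.

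The transporter genes of noradrenaline uptake and vesicle loading narrowly missed the threshold. Slc6a2 was at 9.86, 10.27 and 9.45 in double transgenic tumours, against 6.92, 5.26, 5.74 and 7.55 in MYCN tumours (3.49 ± 1.06, adjusted p = 0.053). Slc18a2 was at 11.89, 12.12 and 11.68 in double transgenic tumours, against 10.49, 9.05, 8.90 and 9.48 in MYCN tumours (2.42 ± 0.74, adjusted p = 0.054). Neither gene overlapped between the groups. The spread behind these tests is shared with the adrenal arrays, where Slc6a2 ranged from 7.49 to 13.16, and without adrenal 2 the adjusted p was 0.0051 for Slc6a2 and 0.00297 for Slc18a2. Neither gene was called without double transgenic 3, when 0 members of the catecholamine list were called higher.

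Ret, the receptor tyrosine kinase gene of the GDNF ligands, showed the same dependence. It was at 10.39, 10.54 and 11.07 in double transgenic tumours, against 6.83, 7.96, 8.23 and 8.19 in MYCN tumours. The groups did not overlap, but the difference of 2.86 ± 1.0 was not called (adjusted p = 0.0896). Adrenal 2 was at 10.69 and the other adrenal arrays at 6.10 and 5.14, and the adjusted p was 0.00128 without adrenal 2, with a range of 0.00128 to 0.221 over the alternatives. A second Ret probe set gave 1.04 ± 0.31. The co-receptor gene Gfra3 rose by 2.32 ± 0.33 (adjusted p = 0.00182), at 10.74, 10.84 and 10.54 in double transgenic tumours, against 8.42, 8.40, 9.04 and 7.70 in MYCN tumours.

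Nrtn, for the ligand neurturin, fell by 1.08 ± 0.23. Gfra3 and Nrtn were the called members of 9 measured RET pathway genes, 11.1% in each direction (against 6.16% of all genes higher and 6.66% lower). Of the neurotrophin and Trk receptor genes 0 of 6 measured were called (against 12.8% of all genes in either direction).

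Granins, the cargo proteins of secretory granules, split. Scg2 was at 9.56, 9.13 and 10.04 in double transgenic tumours, against 7.20, 5.61, 6.91 and 6.04 in MYCN tumours (3.14 ± 0.45, adjusted p = 0.00198). Chgb was at 11.38, 11.40 and 11.08 in double transgenic tumours, against 12.36, 13.19, 12.86 and 13.16 in MYCN tumours (−1.61 ± 0.37, adjusted p = 0.0165), a call that was lost without MYCN 2 or double transgenic 3. So the list held 1 granin above and 1 below with no overlap in either. With Vgf and the processing enzyme gene Cpe (0.40), 3 of 11 members rose (27.3%, against 6.16% of all genes) and 1 fell (9.09%, against 6.66%). The number that rose was 1 without MYCN 2 or double transgenic 1 or 3.

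Genes of ribosome assembly were lower as a group, each by a modest amount. Of 40 measured members 21 were lower (52.5%, against 6.66% of all genes) and 0 higher (against 6.16%). A negative difference was found in 39, and 34 had every double transgenic array below every MYCN array (against 16.2% of all genes). The median was −0.57. The list mean was 9.71, 9.64 and 9.65 in double transgenic arrays, against 10.04, 10.35, 10.22 and 10.19 in MYCN arrays. All double transgenic list means lay below all MYCN list means. By comparison, mutALK arrays lay at 9.03 to 9.37 and adrenal arrays at 8.44 to 8.99.

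Mybbp1a, for a nucleolar protein, was at 10.74, 10.57 and 10.79 in double transgenic tumours, against 11.52, 11.73, 11.54 and 11.60 in MYCN tumours (−0.90 ± 0.12, adjusted p = 0.00121). Dkc1 and Gar1, for proteins of the complex that makes pseudouridine in ribosomal RNA, fell by 0.83 ± 0.13 and 0.83 ± 0.18, and Wdr43, for an assembly factor of the small subunit, by 0.82 ± 0.19. Gar1 was not called without double transgenic 3, nor Wdr43 without MYCN 2 or 3 or double transgenic 1 or 3. Better known nucleolar genes did not pass, among them Npm1 (−0.31 ± 0.14), Ncl (−0.27 ± 0.19) and Nop56 (−0.39 ± 0.17). The number of members called lower was 9 without MYCN 2, 11 without MYCN 3, 12 without MYCN 4, 13 without double transgenic 1 and 10 without double transgenic 2 or 3, while the median stayed between −0.63 and −0.45 over the alternatives.

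Among 28 measured genes of a MYC target list 7 were lower (25.0%, against 6.66% of all genes), 0 were higher (against 6.16%) and the median was −0.44. Shmt2, for the mitochondrial enzyme that takes a carbon unit from serine, was at 7.65, 7.32 and 7.07 in double transgenic tumours, against 9.03, 9.76, 9.88 and 9.68 in MYCN tumours (−2.24 ± 0.32, adjusted p = 0.00198). Its double transgenic arrays were all over 1 unit below the lowest MYCN array, and 3 further probe sets gave −1.78, −1.61 and −0.58. Cad, for the first enzyme of pyrimidine synthesis, fell by 1.03 ± 0.20, the spermidine synthase gene Srm by 0.85 ± 0.14 and the growth regulator gene Pa2g4 by 0.79 ± 0.18. Odc1, a textbook MYC target of polyamine synthesis, did not pass (−0.62 ± 0.29). The count was 4 without MYCN 2 or double transgenic 3, when Pa2g4 was among those not called.

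Sat1, for the enzyme that breaks polyamines down, rose by 1.60 ± 0.23 (adjusted p = 0.00191), at 11.59, 11.85 and 12.21 in double transgenic tumours, against 9.77, 10.12, 10.69 and 10.59 in MYCN tumours. Thus within the list of polyamine and nucleotide synthesis 4 of 19 genes fell (21.1%, against 6.66% of all genes), Srm and Cad among them. In the same list 2 rose (10.5%, against 6.16%). The falls were 2 without MYCN 2, 3 or 4 or double transgenic 3. When any array other than mutALK 3 or adrenal 2 was left out, 1 rise, that of Sat1, was called.

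Mitosis and DNA replication genes were lower in their medians but mostly not called, and the median of the G1 control list was 0.02, with −0.13 to 0.05 over the alternatives. The mitosis list had a median of −0.44 (−0.27 without double transgenic 3) with 2 of 36 lower, Plk1 (−0.94) and Bub1b (−0.74), a share of 5.56% against 6.66% of all genes. The count was 5 without mutALK 3, 1 without MYCN 3, MYCN 4 or double transgenic 1 and 0 without MYCN 2 or double transgenic 3. DNA replication genes had a median of −0.37 with 5 of 40 lower (12.5%, against 6.66% of all genes). The largest of these falls were in Gins2 (−1.15) and Rfc4 (−1.01), and Rfc4 was not called without MYCN 2, 3 or 4 or double transgenic 2 or 3. These 5 calls were 13 without mutALK 3 and 2 without MYCN 2, 3 or 4 or double transgenic 2 or 3. In both lists 0 members rose (against 6.16% of all genes). Of 36 mitosis genes 15 had every double transgenic array below every MYCN array, as did 26 of 40 DNA replication genes (against 16.2% of all genes). In each list 1 gene had every double transgenic array above every MYCN array (against 14.3%). Cdk4 fell by 0.63 ± 0.18, the called member of 23 G1 genes (4.35%, against 6.66% of all genes), and lost its call without any MYCN or double transgenic array or adrenal 1.

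**Figure D4:**
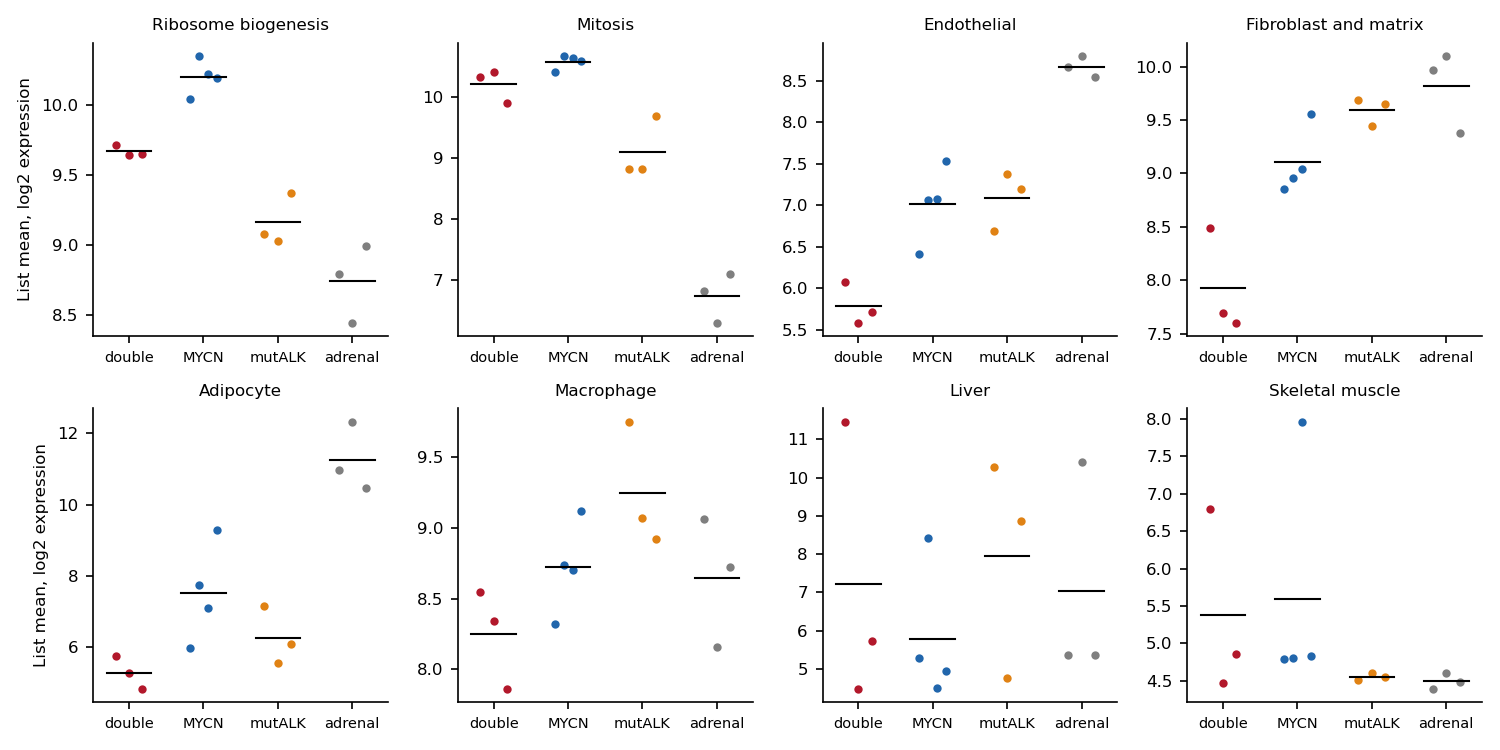
Mean log2 expression over the measured members of 8 gene lists, with 1 point per array and a bar at the group mean, for double transgenic, MYCN, mutALK and adrenal arrays from left to right; the vertical axes differ. Ribosome biogenesis, endothelial and fibroblast list means lie lower in all double transgenic than in all MYCN arrays, while liver transcripts are high in 1 array of each of these groups (11.46 and 8.42).

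Markers of vessel, matrix and fat cells were lower. In the endothelial list 11 of 17 measured members fell (64.7%, against 6.66% of all genes) and 0 rose (against 6.16%), with a median of −1.28. Pecam1, for the adhesion protein CD31, was at 5.07, 4.78 and 4.26 in double transgenic tumours, against 6.33, 6.94, 6.98 and 7.63 in MYCN tumours (−2.27 ± 0.32, adjusted p = 0.00175). The groups did not overlap in Pecam1. The largest fall was in Emcn (−2.42 ± 0.54), followed by Pecam1, Cdh5, for the junction protein VE-cadherin (−2.21 ± 0.42), and Plvap (−1.94 ± 0.34), and the Emcn call was lost without double transgenic 2 or 3. The vessel growth factor gene Vegfa, which tumour cells express, fell by 0.79 ± 0.22, a call lost without MYCN 2, 3 or 4 or any double transgenic array, and its receptor gene Kdr fell by 1.31 ± 0.26.

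The endothelial list mean was 6.08, 5.58 and 5.71 in double transgenic arrays, against 6.41, 7.06, 7.08 and 7.53 in MYCN arrays. MYCN 1 lay nearest to the double transgenic arrays. Without the arrays with liver transcripts 8 members fell, and over all alternatives 8 to 13 did.

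Of 19 measured fibroblast and matrix genes 10 fell (52.6%, against 6.66% of all genes) and 0 rose (against 6.16%), with a median of −1.46. Mgp, for a matrix protein, was at 9.01, 8.93 and 7.95 in double transgenic tumours, against 10.54, 11.43, 11.29 and 11.81 in MYCN tumours (−2.64 ± 0.30, adjusted p = 0.000799). Col1a1, for collagen I, was at 7.51, 6.95 and 6.63 in double transgenic tumours, against 9.20, 9.36, 9.09 and 9.38 in MYCN tumours (−2.23 ± 0.34, adjusted p = 0.00272). Both genes were low in every double transgenic array. Pdgfrb, the receptor gene of pericytes (−2.20 ± 0.31), and Col3a1 (−2.15 ± 0.52, not called without MYCN 4 or double transgenic 2 or 3) were also lower, whereas Dcn (−0.33) and Postn (0.80), further fibroblast markers, did not pass.

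The matrix list mean was 8.49, 7.69 and 7.60 in double transgenic arrays, against 8.85, 8.96, 9.04 and 9.56 in MYCN arrays. In the neural crest and mesenchymal list 4 of 21 members fell (against 6.66% of all genes). The 4 were Notch3 (−1.98 ± 0.38), Zeb2 (−1.90 ± 0.33), Prrx1 (−1.77 ± 0.35) and Twist2 (−1.25 ± 0.37). In the same list 1 member rose (4.76%, against 6.16% of all genes), Zeb1 by 0.85 ± 0.14. The Twist2 call was lost without any array except MYCN 1 or adrenal 2. These genes are also expressed by pericytes and fibroblasts, whose markers moved with them, and that part was not tested.

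Fat cell genes were unevenly represented among the MYCN arrays. Fabp4, for a fatty acid carrier of fat cells and capillaries, was at 7.25, 7.43 and 4.56 in double transgenic tumours, against 9.72, 11.43, 11.29 and 12.64 in MYCN tumours. Ucp1, for the heat-producing protein of brown fat, was at 5.0, 4.63 and 5.17 in double transgenic tumours, against 6.61, 8.36, 8.94 and 10.60 in MYCN tumours. Cidea, for a lipid droplet protein, was at 6.71, 6.79 and 7.33 in double transgenic tumours, against 9.06, 10.96, 10.86 and 11.26 in MYCN tumours.

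In all 3 genes MYCN 4 was the highest array and MYCN 1 the lowest MYCN array. These were the called members of 8 measured (37.5% lower, against 6.66% of all genes), and the list median was −2.15, which became −1.24 without MYCN 4. Adipoq, a defining gene of fat cells, did not pass (−2.90, adjusted p = 0.255). The list mean was 5.76, 5.27 and 4.82 in double transgenic arrays, against 5.96, 7.75, 7.09 and 9.28 in MYCN arrays, and adrenal arrays lay at 10.47 to 12.32.

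Most other cell type lists held no calls. No member was called of the macrophage (18 measured), neutrophil (10), T cell (10), B cell (10), erythroid (8), adrenal cortex (12), liver (16), kidney (10), skeletal muscle (11) or pancreas lists (8), where 12.8% of all genes were called in either direction. Differences were negative for 14 macrophage, 9 T cell and 10 B cell genes, with medians of −0.487, −0.153 and −0.268 (−0.03 over all genes). All 16 liver differences were positive. The list means of the groups overlapped in each of these lists. The B cell list mean was highest in MYCN 1 (6.96), and the adrenal cortex mean in double transgenic 1 (6.70), where the remaining arrays of these groups lay at 5.15 to 5.69 and adrenal gland at 11.25 to 12.70. Schwann cell markers gave 2 of 11 higher (18.2%, against 6.16% of all genes) and 0 lower (against 6.66%). The 2 were Cdh19 (2.83 ± 0.75, not called without MYCN 1, 2 or 3 or any double transgenic array) and Gfra3, which sympathetic neuroblasts also express. Sox10, the lineage's defining factor, did not pass (0.62 ± 0.38). The count was 4 without mutALK 1 or adrenal 2.

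Among oxygen and glycolysis genes 4 of 22 rose (18.2%, against 6.16% of all genes) and 2 fell (9.09%, against 6.66%). After Egln3 these were Aldoc (2.06 ± 0.51), Pfkp (1.48 ± 0.39) and the mitochondrial gene Bnip3 (1.14 ± 0.28), while Vegfa and Epas1, for the hypoxia-inducible factor HIF-2α (−0.92 ± 0.28), were lower. Egln3 was the member called higher without MYCN 2, MYCN 3 or double transgenic 1 or 3, and 2 members were without MYCN 4. Epas1, at an adjusted p of 0.0499, lost its call without any single array other than mutALK 3, adrenal 2 or double transgenic 1, and 0 members were called lower without MYCN 2, 3 or 4 or double transgenic 2 or 3. The list median was 0.21, and 0.37 without double transgenic 2.

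Cell death genes of the BCL2 family also split. Of 14 measured, 2 were higher (14.3%, against 6.16% of all genes) and 3 lower (21.4%, against 6.66%). Hrk, a killer gene of neurons (0.92 ± 0.23), and Bcl2l2, a survival gene (0.45 ± 0.11), were higher, whereas Bok (−0.95 ± 0.24), Bid (−0.65 ± 0.14) and Bik (−0.63 ± 0.11), all death-promoting, were lower. Neither rise was called without MYCN 2, MYCN 4 or double transgenic 2, and neither Bok nor Bid without double transgenic 2 or 3, nor Bok without MYCN 2 or 4. Igf1r, for the insulin-like growth factor receptor, rose by 1.59 ± 0.37 (not called without double transgenic 2 or 3), at 8.80, 9.04 and 8.84 in double transgenic tumours, against 6.44, 7.42, 7.62 and 7.73 in MYCN tumours. Of the early response genes of the Fos, Jun and Egr kind 1 of 21 was called higher, Klf6 (1.20 ± 0.22), and 1 lower, the nuclear receptor gene Nr4a2 (−1.64 ± 0.19), a share of 4.76% each, against 6.16% and 6.66% of all genes. No member of the p53 target (20 measured), oxidative phosphorylation (26), interferon (21) or MHC class I (12) lists was called. Over all genes 12.8% were called in either direction. In the MHC class I list, however, all 12 differences were negative, with a median of −0.535 (−0.03 over all genes). Its list mean was 7.63, 7.48 and 7.18 in double transgenic arrays, against 8.19, 7.77, 7.66 and 8.28 in MYCN arrays. Over the alternatives 0 to 3 of its members were called lower, with 3 without mutALK 1.

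**Figure D5:**
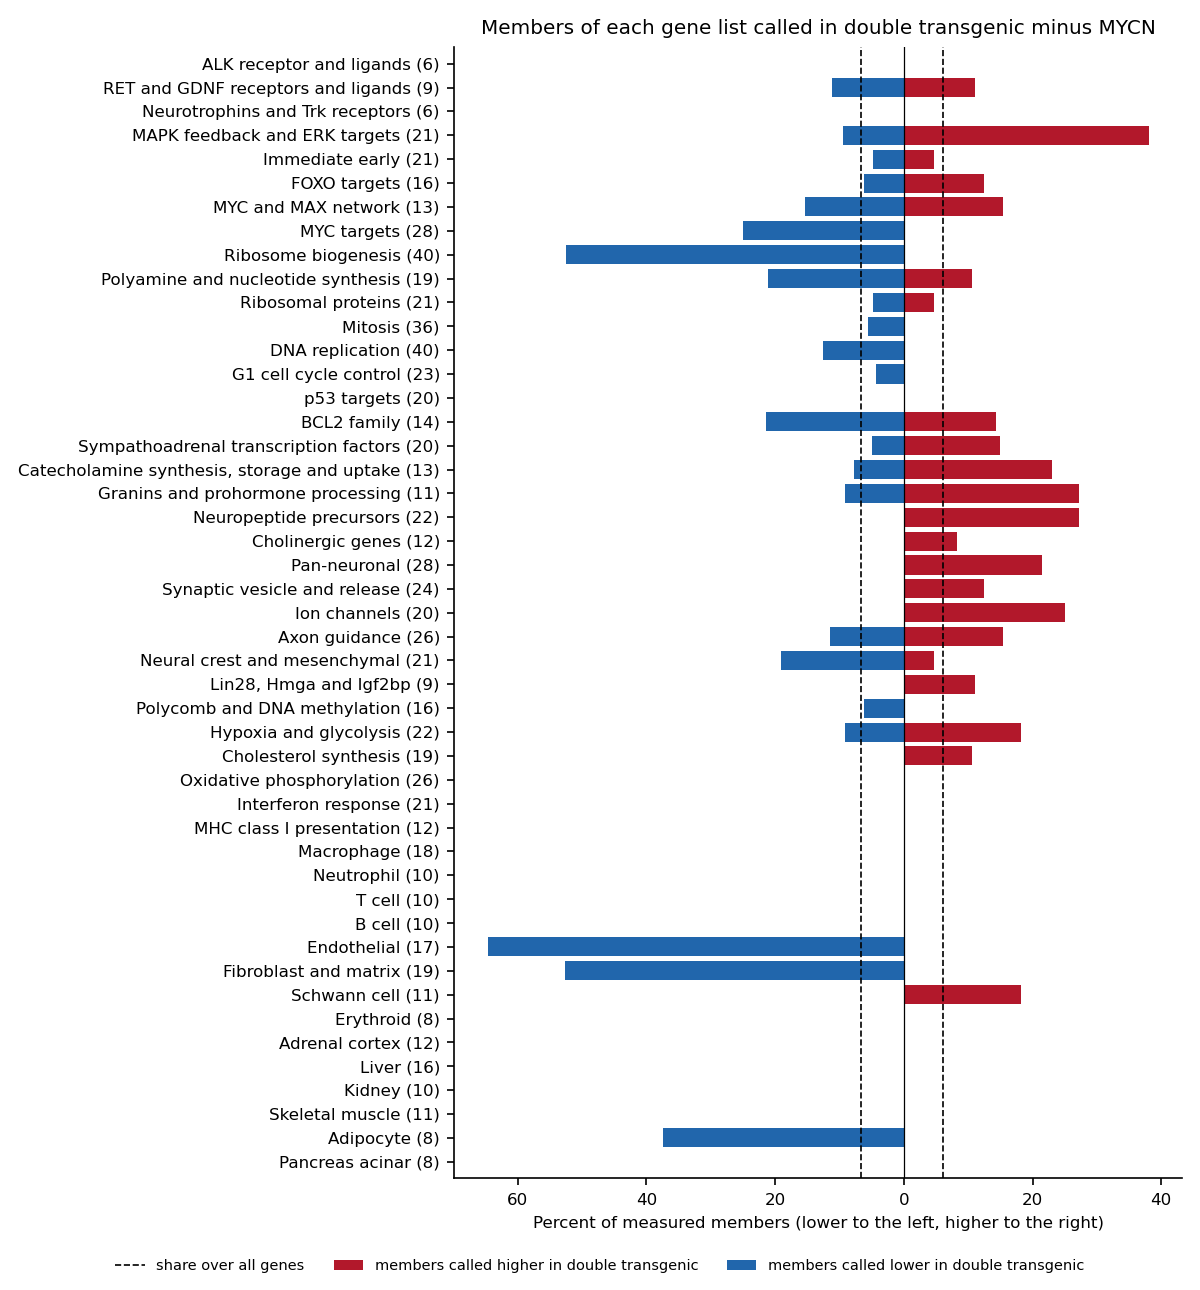
Percent of the measured members of each of 47 gene lists (number measured in parentheses) called higher (red, to the right) or lower (blue, to the left) in double transgenic tumours by limma; dashed lines mark the shares over all genes, 6.16% higher and 6.66% lower. The longest bars are endothelial genes at 64.7% lower, fibroblast genes at 52.6% lower, ribosome biogenesis at 52.5% lower and ERK feedback genes at 38.1% higher.

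Calls were also compared across probe sets and chromosomes. Of the 1447 called genes with a second probe set, 78.8% had a difference of the same sign in it, against 64.1% of the 7563 genes that were not called, and 541 second probe sets were called on their own. On the X chromosome 9.56% of 617 genes were higher and 3.40% lower, against 6.16% and 6.66% of all genes, and the median difference per chromosome lay between −0.06 and 0.03.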

How the data were processed

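RNA of 13 samples was measured on Affymetrix mouse arrays after extraction with a QIAGEN kit and biotin labelling, per the labels' protocols. The authors deposited log2 values summarised by RMA in Partek, per the submitters' processing notes, which give no versions; whether all arrays were summarised together is not given in the sources used here. The deposited log2 values run from 2.04 to 14.46, with array medians of 5.80 to 5.90. Signal over background was not used here, and the number of arrays limits the precision.

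The table holds 45101 probe sets, of which 35890 carry a gene name; 932 with several symbols and 9211 with none were left out. Symbols were checked against RefSeq (GRCm38.p6), which matched 34741 of 34945 probe sets and changed 0 symbols; for each gene the brightest probe set by mean of all arrays was kept, dim genes included.

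Groups came from the labels, and replicates are numbered in accession order. Group means were estimated from all 13 arrays together by limma 3.58.1 in R 4.3.3 (lmFit, then eBayes; residual degrees of freedom 9, prior 2.28). Two-sided p-values were adjusted by Benjamini-Hochberg across 18193 genes, and an adjusted p below 0.05 was a call. The fit was tested on simulated data. Lists (47, with 797 of 880 symbols measured) are described by counts, and their genes, the comparison and the lists were chosen with earlier results of these data known. The named genes are Mycn and Alk, the 12 largest rises and 12 largest falls (called, at least 2-fold, no overlap between the arrays), leaving out predicted, immunoglobulin, Xist, Tsix and Y-linked genes, up to 4 called members of each list, and any member of the ALK, MYC, sympathoadrenal and cell marker lists. Bcl2l2, Dcx, Epas1, Map2, Nrp2, Plxna2, Unc5c, Vegfa and Zeb1 were added after their values were seen. Control probe sets were compared by exact permutation tests with SciPy 1.17.1. Promoter sequences are those of RefSeq. The 26 alternatives cover normalization, centring, dim genes, probe set summaries, the variance model, array weights, the arrays in the fit, title numbers, sex, liver transcripts and leaving out each array. Figures were drawn with matplotlib 3.10.9.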

Additional observations from a re-analysis of the deposited data

Results flagged for a closer look

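Among 73 sets of 4 MYCN values examined, 3 held an array far from the other 3, with a gap to its nearest neighbour that took up more of the range than Dixon's criterion allows; chance alone marks about 1 in 20 such sets. MYCN 3 had a skeletal muscle list mean of 7.96, against 4.79 to 4.83 in the other MYCN arrays. MYCN 3 also had the highest ribosomal protein list mean, 12.94 against 12.88 to 12.89. MYCN 4 had an erythroid list mean of 5.78, against 5.37 to 5.41. The double transgenic group, with 3 arrays, could not be examined in this way.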

How the results depend on the processing

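Of 159 called genes followed through the 26 alternatives, 74 were called under every one, and 68 genes that were not called gained a call under at least 1. The 2333 genes called (1121 higher, 1212 lower) became 3850 with array weights (1848 higher, 2002 lower), 1394 with arrays that share a title number averaged (689 and 705) and 4650 when each of 34945 probe sets was tested on its own (1961 and 2689); the causes were not tested, beyond the fewer arrays or more features in the latter 2. Leaving out 1 array at a time gave 1226 to 3369 calls, 609 to 1688 higher and 617 to 1681 lower, lowest without double transgenic 3 and highest without adrenal 2. The 3 double transgenic and 4 MYCN arrays alone gave 3309. The other 9 alternatives gave 1686 to 2414. Reversed differences were 0.063 for Gmps (−0.51 in the brightest probe set) and 1.31 for Rps9 (−0.09, not called) when all probe sets of a gene were averaged. MYCN 2 and 3 share a title number, whose meaning the labels do not give, and their correlation across genes was 0.989, the highest among MYCN arrays. No paired analysis was possible because the titles give no replicate numbers that the groups share.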
